A study of Equus caballus with 4 samples.

Results

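Actins are the proteins of thin filaments and of the cytoskeleton, and their 6 genes in mammals give nearly identical proteins that are used in different cells. ACTA1 is the main sarcomeric actin of adult skeletal muscle, and ACTC1 is that of the heart and is also made by developing and regenerating skeletal muscle. ACTA2 is the actin of vascular smooth muscle and is also made by myofibroblasts and young muscle cells, ACTG2 is the actin of visceral smooth muscle, and ACTB and ACTG1 are the cytoplasmic actins of nearly all cells. Cultured muscle cells shift from cytoplasmic to sarcomeric actins as they fuse into myotubes.

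The values here are those of all gene probes whose annotated gene name was exactly ACTA1, ACTC1, ACTA2, ACTG2, ACTB or ACTG1, on 4 two-colour arrays of equine satellite cells, the stem cells of skeletal muscle. There were 9 such probes among 43603 gene probes, 5 for ACTG2 and 1 each for ACTA1, ACTC1, ACTA2 and ACTB, while ACTG1 had 0 probes under that name. Cells of the semitendinosus muscle were studied on day 3 of differentiation. The treated cells were kept for 24 h in 0.125 µM gamma-oryzanol (GO, a mixture of ferulic acid esters from rice bran), with 3 mM hydrogen peroxide (H2O2) present in the last 1 h, and the control cells had no GO. Whether the controls had H2O2 is not in the labels; the study's text has them exposed to it, and to the DMSO vehicle. By the study's methods muscle came from several young stallions and the best primary line was chosen by viability and fusion, so that the 4 replicates, biological by their labels, may be cultures of 1 line, and the p-values then measure the spread between cultures. Treated RNA was labelled red (Cy5) and control RNA green (Cy3) on every array of 1 slide, with no dye swap, and an effect of the dyes cannot be told apart from an effect of the treatment.

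Each probe is 60 bases long, and positions are those of the array annotation (EquCab1). The ACTA1 and ACTB probes are shown in full because the comparison of a sarcomeric with a cytoplasmic actin rests on them, and of the others the first 30 bases are shown. In the ACTG2 probes capitals mark the 26 bases that all 5 printed stretches share.
ACTA1: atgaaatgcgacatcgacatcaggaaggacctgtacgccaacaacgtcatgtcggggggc
ACTB: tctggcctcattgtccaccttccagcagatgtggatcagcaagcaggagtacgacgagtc
ACTC1: catctctcatccatcattgtacagtttgtt
ACTA2: ttttttaataaatctgaactatgtcaccgg
ACTG2 probe 1: tctcTGGGGACCTCCTTGAGACTACCCTAT
ACTG2 probe 2: ctcTGGGGACCTCCTTGAGACTACCCTATT
ACTG2 probe 3: tcTGGGGACCTCCTTGAGACTACCCTATTA
ACTG2 probe 4: cTGGGGACCTCCTTGAGACTACCCTATTAC
ACTG2 probe 5: TGGGGACCTCCTTGAGACTACCCTATTACC

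The ACTG2 probes each start 1 base after the one before (chr15:25673053-25673116 over the 5), share 56 bases and are therefore not independent measurements. The ACTC1 probe lies at chr1:150271137-150271196 and the ACTA2 probe at chr1:38701660-38701719. Those of ACTA1 (chrUn:242448913-242448972) and ACTB (chrUn:136490381-136490322, given in descending order) lie on sequence that this build does not place on a chromosome. Whether a position is coding or UTR was not assigned, since no annotation of this build was used here. GC content was 55% for the ACTA1 and ACTB probes, 45% or 43.3% for those of ACTG2, 40% for ACTA2 and 36.7% for ACTC1. No probe of the array under another name shared a run of more than 15 bases with any of the 9 probes. The probes were not compared with transcript sequences. Whether a probe also binds the transcripts of other actin genes was therefore not tested, and the comparisons between isoforms carry this limit.

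All 9 probes were well above background on 4 of 4 arrays in both channels, and none had saturated pixels or an outlier mark. The intensity of a spot depends on its probe as well as on its transcript, so that the scanned intensities below are compared between the channels of a spot and not between genes.

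The scanned intensity of ACTC1 was 277470.3, 241285, 224229 and 266037 in the treated channel and 128171, 117432, 114876 and 136765 in the control channel on replicates 1 to 4. For ACTB it was 228645, 216055, 211070.2 and 207536 in the treated channel and 109529, 111539, 101141 and 104156 in the control channel. For both genes the lowest treated value was above the highest control value, before any correction for the dyes. The share of all probes for which this holds is not given here, so nothing about the actins is read from it. ACTA1 had 101719, 74088, 61744 and 63148 in the treated channel and 52752, 46855, 36920 and 43867 in the control channel. Its lowest treated value was also above its highest control value. ACTA2 had 16070.3, 11252, 11363 and 12881 in the treated channel and 11451, 9616, 6917 and 9049 in the control channel, and here 2 treated values lay below the highest control value. The brightest ACTG2 probe had 96938, 111202, 81305 and 70498 in the treated channel and 74114, 53732, 48760 and 44701 in the control channel, and the treated value of replicate 4 lay below the control value of replicate 1.

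These scanned values are not yet corrected for the dyes. The treated over control log2 ratio as scanned had a median of −0.11, −0.17, −0.22 and −0.29 over the gene spots of replicates 1 to 4, whereas the actin probes averaged 1.02 (ACTC1 and ACTB), 0.72 (ACTA1), 0.49 (ACTA2) and 0.59 to 0.71 (ACTG2). Among the 200 probes nearest in brightness the same median averaged 0.72 for ACTC1 and ACTB, 0.51 for ACTA1 and 0.32 for ACTA2. Bright spots of all genes were thus redder than dim ones, and loess normalisation within each array was used to remove this dependence on signal.

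**Figure D1:**
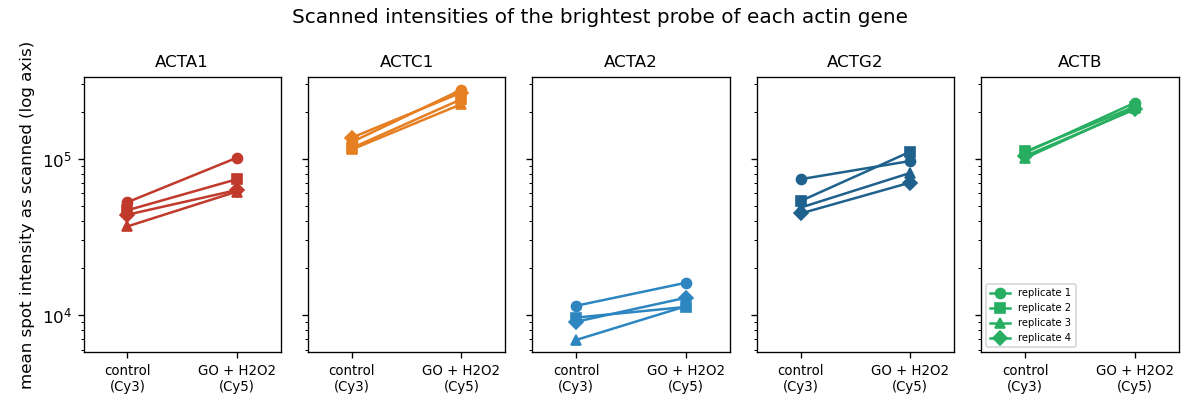
Mean spot intensity as scanned (log axis) of the brightest probe of each actin gene, with a line from the control channel (Cy3) to the treated channel (Cy5) of each of the 4 arrays. All lines rise from the control to the treated channel before correction for the dyes, and levels are not comparable between genes.

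After loess, the signals of ACTC1 and ACTB were higher with GO and H2O2, and the other 3 genes with probes did not pass the test. With limma over 24230 tested probes, 2 of the 9 actin probes were past the threshold (adjusted p under 0.05) and higher, while 0 were lower and none had a mean below 0. Of all tested probes 9.49% were higher and 7.59% lower. Among the 405 tested probes with a mean log2 signal above 16, the range that holds ACTC1, ACTB and the brightest ACTG2 probe, 36.5% were higher, so that being called higher was common among probes of such brightness.

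ACTC1 had log2 ratios of 0.50, 0.35, 0.48 and 0.42 on replicates 1 to 4. Its mean was 0.44 ± 0.066 (SD, n = 4 arrays), a fold change of 1.35 (limma adjusted p = 0.0114). All 4 values were above 0, and their SD was the smallest among the actin genes. Of the tested probes 262 (1.08%) had a higher mean ratio. More cells of the kind that makes ACTC1 and more of its RNA per cell cannot be told apart in these bulk samples, here and for all ratios below.

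ACTA1, the other sarcomeric actin, had log2 ratios of 0.43, 0.064, 0.32 and 0.11. Its mean was 0.23 ± 0.17 (SD, n = 4 arrays) and did not pass (limma adjusted p = 0.0614). All 4 values were above 0, with those of replicates 2 and 4 the lowest. Without replicate 2 the mean was 0.29 and passed (limma adjusted p = 0.0391, against 0.0391 to 0.526 over 17 alternatives).

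ACTB had log2 ratios of 0.46, 0.27, 0.58 and 0.48. Its mean was 0.45 ± 0.13 (SD, n = 4 arrays), a fold change of 1.37 (limma adjusted p = 0.0149). Replicate 2 was the lowest, as it was for ACTA1, ACTC1 and ACTA2. Of the tested probes 228 (0.941%) had a higher mean ratio.

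The smooth muscle actins varied more between arrays. ACTA2 had log2 ratios of 0.14, −0.22, 0.39 and 0.24, with a mean of 0.14 ± 0.26 (SD, n = 4 arrays; limma adjusted p = 0.333). Replicate 2 was the only array below 0, and without it the mean was 0.26 and passed (limma adjusted p = 0.0390, against 0.0390 to 0.805 over 17 alternatives). ACTG2, averaged over its 5 probes, had log2 ratios of −0.18, 0.38, 0.26 and 0.19, with a mean of 0.16 ± 0.24 (SD, n = 4 arrays). Here replicate 1 was the only array below 0 and replicate 2, the lowest of ACTA2, was the highest. The brightest ACTG2 probe had a mean of 0.20, which was 0.32 without replicate 1 and 0.13 without replicate 2, and it did not pass in either case (limma adjusted p = 0.0820 and 0.334, against 0.0820 to 0.769 over 17 alternatives).

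**Figure D2:**
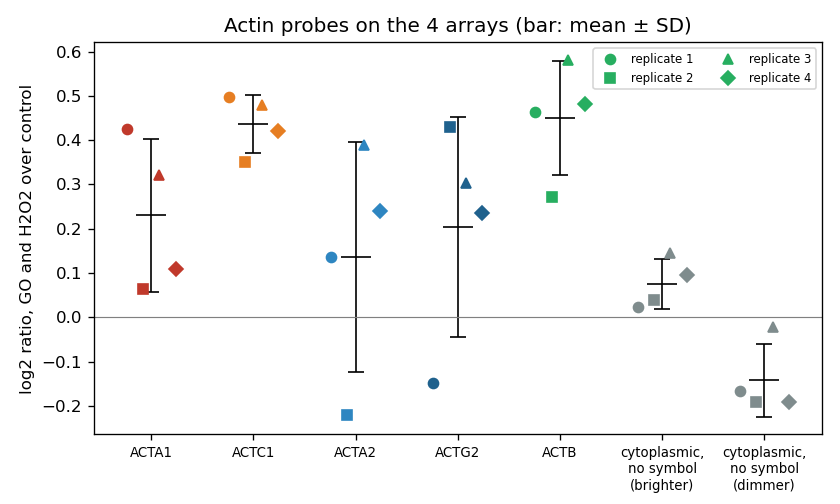
Log2 ratio of treated over control signal after loess for the brightest probe of each actin gene and for the 2 probes described as cytoplasmic actin that have no gene symbol, 1 symbol per array, with bars for mean ± SD over 4 arrays. ACTC1 lies between 0.35 and 0.50 and ACTB between 0.27 and 0.58, while ACTA2 falls below 0 on replicate 2 and ACTG2 on replicate 1.

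These 2 calls rested on the set of arrays and on the normalisation. No actin probe was called without replicate 1, without replicate 3 or without replicate 4, and 4 were called without replicate 2. The number of all probes called with limma was 2, 38 and 0 without replicates 1, 3 and 4 and 3899 without replicate 2. Without replicate 4 there were 6694 probes with an unadjusted p under 0.05. ACTC1 and ACTB had an unadjusted p under 0.05 whichever array was left out, ACTA1 had one without replicates 2, 3 and 4 in turn, and without replicate 1 so had all 5 ACTG2 probes. The mean ratios changed little, from 0.42 to 0.47 for ACTC1 and from 0.41 to 0.51 for ACTB. With median centring in place of loess, which leaves the dependence on signal in the ratios, both means were 0.72 and neither passed (limma adjusted p = 0.264, where the 17 alternatives gave 0.00820 to 0.264 for ACTC1 and 0.00952 to 0.264 for ACTB).

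The ACTG2 probes allow bright and dimmer probes of 1 transcript to be compared. From probe 1 to probe 5, the mean log2 signals over both channels were 16.08, 15.74, 15.64, 15.84 and 15.96, and the mean log2 ratios were 0.20, 0.13, 0.11, 0.18 and 0.18. The limma adjusted p was 0.154 to 0.387 and the unadjusted p 0.0607 to 0.241, so that 0 of the 5 passed. Each probe was below 0 on replicate 1 (−0.13 to −0.22) and above 0 on the other 3 arrays. The 5 probes, which differ by shifts of 1 base and in their place on the array, thus differed in brightness but not in sign on any array.

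The brightest ACTG2 probe had a higher log2 ratio than the dimmest by 0.072, 0.13, 0.076 and 0.11 on replicates 1 to 4. The mean difference was 0.095 ± 0.026 (SD, 4 of 4 arrays positive; exact two-sided sign-flip test, p = 0.125, the smallest that 4 arrays allow). Within an array the SD over the 5 probes was 0.029 to 0.054, whereas the SD of their mean over the arrays was 0.24. For 1243 genes with 5 tested probes of 1 transcript, the range of the 5 mean ratios had a median of 0.068 (quartiles 0.046 and 0.099). The range of ACTG2 was 0.095, and 72.3% of these genes had a smaller one.

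**Figure D3:**
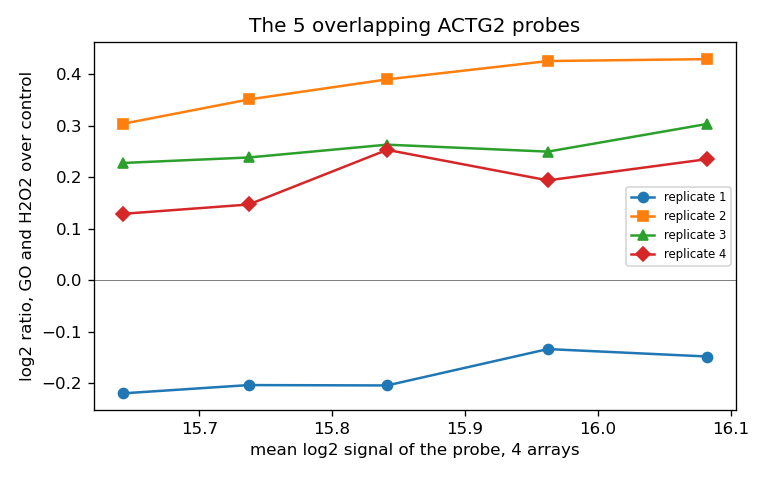
Log2 ratio (treated over control) against the mean log2 signal of each of the 5 overlapping ACTG2 probes, with 1 line per array. The lines of replicates 2, 3 and 4 stay above 0 and that of replicate 1 stays below 0 at every probe, and on each array the brightest probe lies above the dimmest.

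The ratio also depended on brightness across all genes after loess. The 405 probes above a log2 signal of 16 had a median log2 ratio of 0.14, with 148 higher and 8 lower, while the median of all tested probes was 0.0030. The ACTC1 probe had a mean log2 signal of 17.43 with 17 brighter tested probes, and the ACTB probe 17.21 with 34. The 200 probes nearest in signal had a median log2 ratio of 0.17 around each of them, and the ratios above that median were 0.26 ± 0.045 for ACTC1 and 0.28 ± 0.094 for ACTB (SD, n = 4 arrays, all 4 positive for both). Most of these 200 probes were dimmer than the gene itself, and their median was the same for both genes on each array. ACTA1, at a log2 signal of 15.81, had neighbours with a median of 0.023 and lay 0.21 ± 0.15 above it. ACTA2, at 13.40, had neighbours with a median of −0.027 and lay 0.16 ± 0.25 above it. Relative to probes of like brightness, the means of the actin genes were thus closer together than their ratios.

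With this median subtracted from every probe, ACTC1 (0.26, limma adjusted p = 0.0192) and ACTB (0.27, adjusted p = 0.0224) still passed. With the nearest 50 probes in place of 200, an alternative chosen after seeing the data, ACTC1 had 0.16 (limma adjusted p = 0.0423) and ACTB 0.24 (adjusted p = 0.0305). The value of ACTC1 and that of ACTB were thus smaller by more than 1.5 times with either median. How much of the ratio of either gene belongs to its brightness was not tested.

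**Figure D4:**
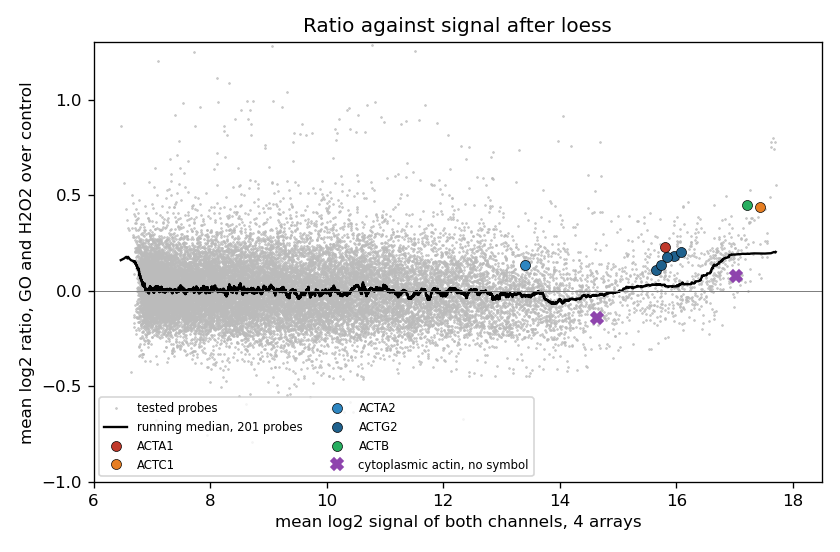
Mean log2 ratio against mean log2 signal over 4 arrays for the tested probes (grey), with the running median over 201 probes (line), the actin probes (circles) and the 2 probes described as cytoplasmic actin without a symbol (crosses). The line leaves 0 at the bright end, where ACTC1 and ACTB lie above it, and the brighter cross lies below it.

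**Figure D5:**
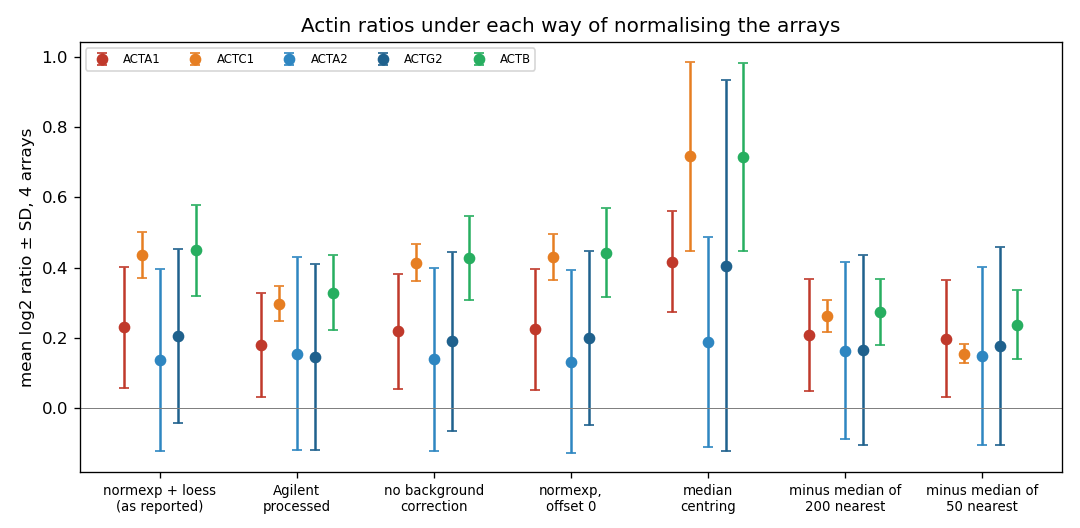
Mean log2 ratio ± SD over 4 arrays of the brightest probe of each actin gene under each way of normalising the arrays. All means are above 0 in each, those of ACTC1 range from 0.16 to 0.72 and those of ACTB from 0.24 to 0.72, and the SDs are widest with median centring for ACTC1 and ACTB.

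The isoforms were compared within arrays, where each gene serves as reference for the other. ACTC1 and ACTB had nearly equal ratios, with a difference of −0.013 ± 0.083 (SD, n = 4 arrays; 2 of 4 positive; exact sign-flip p = 0.875). ACTA1 was below ACTC1 on all 4 arrays, with differences of −0.071, −0.29, −0.16 and −0.31 and a mean of −0.21 ± 0.11 (exact p = 0.125). It was also below ACTB on all 4, with a mean difference of −0.22 ± 0.14 (exact p = 0.125). ACTC1 minus ACTA2 was 0.30 ± 0.21 and ACTA2 minus ACTB was −0.31 ± 0.13, each with the same sign on all 4 arrays (exact p = 0.125 for both). ACTG2 minus ACTB was −0.29 ± 0.31, below 0 on replicates 1, 3 and 4 only (exact p = 0.25). Apart from that between ACTC1 and ACTB, these differences were smaller with the median of probes of like brightness subtracted. ACTC1 minus ACTB stayed at −0.013 ± 0.083 with the nearest 200 probes. Both genes had the same median on each array there, so that their difference could not change. With the nearest 50 it was −0.082 ± 0.11 (1 of 4 arrays positive). ACTA1 minus ACTC1 was then −0.054 ± 0.13 (1 of 4 arrays positive) with the nearest 200 probes and turned to 0.043 ± 0.15 (3 of 4 positive) with the nearest 50, and ACTA1 minus ACTB was −0.067 ± 0.13 and −0.040 ± 0.13 (1 of 4 positive in each). ACTC1 minus ACTA2 was 0.099 ± 0.25 and 0.0065 ± 0.26 (2 of 4 positive in each), and ACTA2 minus ACTB was −0.11 ± 0.17 and −0.089 ± 0.17 (1 of 4 positive in each). The same sign on all 4 arrays thus did not hold for any of these pairs relative to probes of like brightness. Over the 10 pairs the smallest Benjamini-Hochberg adjusted value was 0.3125, and no pair could have passed, since 4 arrays allow 16 sign patterns and no p below 0.125.

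In the order of the mean ratios, ACTB and ACTC1 were followed by ACTA1, ACTG2 and ACTA2. ACTA1 minus ACTG2 was 0.069 ± 0.39 and ACTA2 minus ACTG2 was −0.025 ± 0.40, both within their spread. The place of ACTC1 depended on brightness too, since with the median of the nearest 50 probes subtracted its ratio (0.16) was below that of ACTA1 (0.20) and within 0.02 of those of ACTA2 (0.15) and ACTG2 (0.14, mean of its probes). ACTB was above ACTC1 on only 2 of 4 arrays before this subtraction. The order of the actin genes was therefore not settled by these arrays.

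By class, the sarcomeric actins (mean of ACTA1 and ACTC1) had a log2 ratio of 0.33 and ACTB, which alone stands for the cytoplasmic class since ACTG1 has no probe under its name, 0.45. The difference was −0.12 ± 0.10 (SD; below 0 on 4 of 4 arrays; exact sign-flip p = 0.125). The smooth muscle actins (mean of ACTA2 and ACTG2, 0.15) differed from ACTB by −0.30 ± 0.13, below it on 4 of 4 arrays, and the sarcomeric actins lay 0.18 ± 0.20 above the smooth muscle actins on 4 of 4 arrays (exact p = 0.125 for both). The differences of both classes from ACTB kept their sign under the alternatives run, other than the one that follows for the sarcomeric class, but not their size. With the median of the nearest 200 or 50 probes subtracted, sarcomeric minus cytoplasmic was −0.040 or −0.061 (exact p = 0.375 for both), and smooth muscle minus cytoplasmic was −0.13 or −0.095 (exact p = 0.125 for both). The sarcomeric minus smooth muscle difference did not keep its sign on all 4 arrays with either median subtracted. Between single genes of these 2 classes the mean difference was then 0.045 to 0.13 with the nearest 200 probes and 0.0065 to 0.061 with the nearest 50.

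There were 2 more probes that the annotation describes as cytoplasmic actin 1 without giving a gene symbol, both on chromosome 11 of EquCab1 (chr11:409266-409325 and chr11:408537-408596), which are not members by name. The first was nearly as bright as that of ACTB (mean log2 signal 17.02) and had log2 ratios of 0.023, 0.039, 0.15 and 0.096, with a mean of 0.076 ± 0.056 (SD, n = 4 arrays; limma adjusted p = 0.226). The second was dimmer (14.64) and had −0.17, −0.19, −0.021 and −0.19, with a mean of −0.14 ± 0.082 (limma adjusted p = 0.0734). Neither passed, and their values on the 4 arrays do not overlap with those of ACTB.

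The annotation of the ACTB probe also lists the transcript of the second, so the probes are described as the same kind of product but gave different ratios. ACTB lay above the first by 0.37 ± 0.097 and above the second by 0.59 ± 0.091, each on 4 of 4 arrays (exact sign-flip p = 0.125 for both). With the 2 probes averaged into 1 value that entered the cytoplasmic group beside ACTB, an alternative added after seeing the data, the sarcomeric actins were above the cytoplasmic ones by 0.13, on 4 of 4 arrays (exact p = 0.125), the opposite sign. The sign of this class difference thus depended on which probes stand for cytoplasmic actin. Which genes these 2 probes detect was not settled here. ACTBL2, the gene of a further actin similar to ACTB, is named on the array and is no member by the rule. Of its 5 probes 4 were tested, and 2 of these were higher, with mean log2 ratios of 0.25 ± 0.073 and 0.20 ± 0.067 (limma adjusted p = 0.0213 and 0.0291).

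Genes that build, anchor and respond to actin were taken from 3 lists. Monomeric actin is held by cofilin, profilin and thymosins and added to filaments through formins and the Arp2/3 complex, while capping proteins close filament ends. Monomeric actin also binds the MRTF coactivators (MKL1, MKL2) of SRF, which drives actin genes. Each gene was taken at its brightest tested probe. Over all 13692 gene names tested 9.93% were higher and 7.16% lower, with a median log2 ratio of 0.0088.

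Among 43 tested genes of actin assembly and turnover (58 listed), 3 were higher and 5 lower, with a median of 0.012. The higher were CAPZB, a subunit of the protein that caps barbed ends (0.37 ± 0.13, limma adjusted p = 0.0169), the severing protein cofilin CFL1 (0.27 ± 0.087, adjusted p = 0.0212) and TMSB10, a thymosin that binds monomers (0.18 ± 0.042, adjusted p = 0.0326). TMSB10 is brighter than ACTC1, with a log2 signal of 17.56, and with the median of the nearest 50 probes subtracted its log2 ratio was −0.12 (limma adjusted p = 0.106). The lowest were TWF1, twinfilin, another monomer-binding protein (−0.37 ± 0.038, limma adjusted p = 0.0119), ACTR2, a core subunit of Arp2/3 (−0.37 ± 0.23, adjusted p = 0.0361, with 2 of its 3 probes called), and WIPF1, a partner of WASP (−0.22 ± 0.051, adjusted p = 0.0233). Of the 3 ACTR2 probes 1 had a mean above 0. The other lower genes, named after their values were seen, were the formin FMNL2 (−0.16 ± 0.043, limma adjusted p = 0.0379) and SETD3, the methyltransferase that modifies a histidine of actin (−0.16 ± 0.049, adjusted p = 0.0400, with 1 of its 2 probes called). The other SETD3 probe had a mean above 0. FMNL2 had 1 tested probe, which was dim (mean log2 signal 6.95). The muscle cofilin CFL2 (−0.012 ± 0.14) and thymosin TMSB4X (−0.087 ± 0.11) did not pass, and PFN1 had no probe under that name.

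Among 15 tested genes of crosslinking and anchoring (23 listed), 2 were higher and 4 lower, with a median of 0.047. FLNC, the filamin of muscle, had 0.41 ± 0.080 (limma adjusted p = 0.0125) and MYPN, myopalladin of the Z-disc, 0.24 ± 0.11 (adjusted p = 0.0301). The membrane linkers MSN (−0.39 ± 0.17, limma adjusted p = 0.0211) and EZR (−0.30 ± 0.18, adjusted p = 0.0350) and the adaptor LASP1 (−0.23 ± 0.052, adjusted p = 0.0214) were lower. LASP1 had 1 tested probe, which was dim (mean log2 signal 7.04). The remaining lower gene, named after its values were seen, was PALLD, palladin, which binds filament bundles (−0.23 ± 0.062, limma adjusted p = 0.0233).

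Among 19 tested genes of the SRF and MRTF pathway (33 listed), 0 were higher and 1 was lower with limma, with a median of 0.0054, and 4 had an unadjusted p under 0.05. The lower gene was ROCK1, a kinase downstream of RhoA that promotes filament assembly (−0.18 ± 0.081, limma adjusted p = 0.0427). MKL1 had −0.066 ± 0.097 and did not pass, and SRF and MKL2 had no probe under those names. ABRA, a muscle protein that promotes MRTF activity and named here after its values were seen, had 0.20 ± 0.17 at its brightest probe (limma adjusted p = 0.0837), while 3 of its 5 probes passed.

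The cells were checked by marker genes, since actin classes differ between cell types. All 10 muscle markers on the array were above background on every array, 6 of them were higher, and their mean log2 ratio was 0.35, 0.17, 0.38 and 0.21 on replicates 1 to 4. The myogenic factor MYOG had 0.33 ± 0.13 (limma adjusted p = 0.0212) and the fast troponin TNNT3 0.44 ± 0.10 (adjusted p = 0.0125). Of 5 smooth muscle markers on the array 2 were above background on all arrays and 0 of them were called, and MYOCD and RGS5 were above background on no array. The summed intensity of the smooth muscle markers was 896 to 1061 in the treated channel and 876 to 946 in the control channel. Fibroblast markers were above background for 6 of 8 genes, with THY1 higher (0.28 ± 0.14, limma adjusted p = 0.0290) and LUM lower (−0.43 ± 0.10, adjusted p = 0.0131). The mean log2 ratio of all 8, which includes genes that were not tested, was between −0.058 and 0.13 over the arrays. Among the 6 tested genes the median of the mean ratios was 0.11, against 0.29 for the 10 muscle markers. Of 5 endothelial and 4 adipocyte markers with probes, 0 passed the filter on dim probes, and of 4 immune markers 2 did, with CD14 lower (−0.17 ± 0.061, limma adjusted p = 0.0385). The part of cell makeup in the actin ratios was not tested.

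The genes most like each actin were sought among 8136 named genes by the root mean square difference of the 4 log2 ratios. Nearest to ACTC1 were TBCB (0.045), TNNT3 (0.045) and MSLN (0.048). Nearest to ACTB were TNNT3 (0.053), MYH7 (0.057) and ATP2A1 (0.058). For ACTA1 they were SVIL, PRKRA and MVD (0.059 to 0.061), and for ACTA2 MFAP4, MAP3K5 and GADD45G (0.056 to 0.063). No gene came as close to ACTG2, where the nearest were TMEM150A, CD200 and TRIM36 (0.11 to 0.12). Between 17 and 31 genes lay within 0.1 of each of the other 4 actins and 0 lay that close to ACTG2, the gene that was negative on replicate 1 alone.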

How the data were processed

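Expression was measured on 4 arrays, each of treated (Cy5) against control (Cy3) RNA. The authors extracted the deposited spot intensities with Agilent Feature Extraction (version 10.10.1.1 by the headers of the files). A deposited log10 ratio of the processed channels, red over green, is in the same files and, with equal values, in the authors' series matrix (column medians 0). Mean intensities were corrected against background medians with normexp (offset 50) and normalised by loess, with control spots at weight 0. Control spots and spots marked as outliers were dropped, and spots of a probe were averaged. Of 43603 gene probes, 24230 were well above background on all 4 arrays in 1 channel and were tested. The log2 ratio computed here is treated over control. Its mean over the arrays was compared with 0 in limma (version 3.58.1, lmFit and eBayes, in R version 4.3.3). The test was two-sided, p-values were adjusted over all tested probes by Benjamini-Hochberg, and the threshold was 0.05. A gene takes the value of its brightest tested probe, except in comparisons between isoforms, which use the mean of its probes and exact two-sided sign-flip tests over arrays. The scripts were checked on simulated data. The number of arrays limits the precision.

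The actin genes and gene lists were chosen with earlier results of these data known. Named genes were all actin probes, up to 3 highest and 3 lowest called genes of each list, SRF, MKL1, MKL2, CFL1, CFL2, PFN1 and TMSB4X, and the 3 genes nearest to each actin. Alternatives tried were median centring, the processed signals of Agilent, normexp with offset 0 or no correction of background, and the series matrix. Further ones were medians of the nearest 200 or 50 probes subtracted, 2 other filters on dim probes and eBayes with trend and robust. The rest were channels without the array as block, the methods' t-test, the mean of a gene's tested probes, and each array left out. Gene names are those of the array annotation.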

Additional observations from a re-analysis of the deposited data

How the results depend on the processing

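The array pairs treated with control RNA and is the block of the reported test. With no replicate block 594 probes passed in place of 4137, with 1 list gene higher and 2 lower in place of 5 and 10, while ACTC1 and ACTB still passed. With median centring 12 probes passed (100% higher, against 55.6%), 0 actin probes and 0 list genes in either direction, and ACTC1 and ACTB had 0.72 each. With the methods' t-test after adjustment 5 probes passed (6930 unadjusted), 0 actin probes and 0 list genes in either direction, with ACTC1 (0.44) and ACTB (0.45) past the threshold no longer (adjusted p = 0.0658 and 0.0870). Leaving out 1 array gave 0 to 3899 probes, 0 to 4 actin probes, 0 to 9 list genes higher and 0 to 7 lower, and ratios of 0.42 to 0.47 for ACTC1, 0.41 to 0.51 for ACTB, 0.17 to 0.29 for ACTA1, 0.052 to 0.26 for ACTA2 and 0.13 to 0.32 for ACTG2. The cause was not tested. ACTC1 and ACTB each passed in 12 of 17 alternatives, which were not independent. The mean over the tested probes is the reported value again for these genes, which have 1 probe each. The series matrix also repeats the processed signals of Agilent. The sarcomeric minus cytoplasmic difference turned to 0.13 with the 2 unsymboled cytoplasmic probes, and ACTA1 minus ACTC1 to 0.043 with the 50-probe median. Among single genes CFL2 turned to 0.0058 without background correction, 0.0016 with the 200-probe median, and ranged from −0.061 to 0.041 with 1 array left out, TMSB4X turned to 0.084 with median centring, and TMSB10 to −0.12 with the 50-probe median.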
